A study of Mus musculus with 11 samples.

Results

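The tripartite motif (TRIM) family was followed in mouse colorectal organoids given NAP. Members were the protein-coding genes of the deposited count table named Trim with a number, with at least 10 counts in at least 5 of the 11 libraries. The rule held for 45 of the 68 coding genes so named, out of 47131 genes in the table. It used the counts themselves, and it named Trim36 with its result in this comparison known, so the values of Trim36 are given as a description. The organoids, epithelial cultures in Matrigel, were started from the colon of C57BL/6J mice, all female and 6 to 8 weeks old. NAP was given at 10 pM for 48 h and gave 6 libraries, NAP 1 to 6. The other 5 libraries are controls 1 to 5, called untreated in a sample field and PBS-treated in the protocol. The labels do not spell out NAP. They carry batch label 1 for every library. The titles call the libraries biological replicates, but no separate animals or cultures behind them are named. A p-value therefore reflects only how these libraries vary, and the source of that variation is not stated. The comparison of NAP with control asks which transcripts differ in level after the treatment.

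TRIM proteins carry a RING domain, 1 or 2 B-boxes and a coiled coil, and most act as ubiquitin ligases that take activated ubiquitin from an E2 enzyme and pass it to a target. The part that follows the coiled coil sorts the family into classes and often picks the target, as the B30.2/SPRY domain does in the retrovirus restriction factor Trim5 and the RIG-I ligase Trim25. Many members are interferon-stimulated or act in antiviral signalling, and a bromodomain group (Trim24, Trim28, Trim33) acts on chromatin. In gut epithelium, Trim31 and Trim40 are known as colon-enriched members.

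Count totals ran from 16546263 to 21947414 per library, and the members held 0.115 to 0.187% of them. Levels below are CPM, the counts relative to a TMM-scaled library total. Where a library has no count for a gene, its level could still be as high as 0.130 to 0.215 CPM (3 counts, counting error only). The 10 epithelial markers (Epcam, Cdh1, keratins and others) summed to 11582 to 23718 CPM in controls and 13211 to 17090 CPM after NAP. Markers of immune cells summed to 5.85 to 13.5 CPM in controls and 8.83 to 18.7 CPM after NAP. Those of fibroblasts summed to 2.2 to 31.9 CPM and 7.65 to 52.7 CPM. The muscle list summed to 25.5 to 156 CPM in controls and 74.4 to 519 CPM after NAP, nearly all of it Acta1, while Myog was at 0 in every library. The controls stood apart from each other: 6 absorptive colonocyte markers summed to 15067 and 14172 CPM in controls 2 and 5 and to 2053 to 4529 CPM in the other controls, and 6 stem and crypt markers to 35.2 and 37.6 CPM against 248 to 683 CPM. After NAP the same sums were 6244 to 9786 CPM and 71.2 to 248 CPM. Whether these sums bear on the members was not tested. In RNA from whole cultures, fewer cells of a type and less RNA per cell cannot be told apart.

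Among the 45 members, Trim36 and Trim6 rose at an adjusted p under 0.05 (edgeR quasi-likelihood test, adjusted over 14840 tested genes). That is 4.44% of members beside 2.12% of all tested genes in either direction and 1.05% higher, and Trim36 was singled out for this result. No member passed in the lower direction in edgeR (1.07% of all tested genes did), where 3 were lower at an unadjusted p under 0.05, and 0 passed in limma voom (1.08% of all tested genes did). At an adjusted p under 0.10, 7 members passed (15.6%, beside 9.97% of all tested genes), 5 of them higher (11.1%, beside 4.58%) and 2 lower (4.44%, beside 5.4%). At an unadjusted p under 0.05, 13 members passed (28.9%, beside 23.6% of all tested genes). Of these 10 members were higher, 22.2% beside 10.8% of all tested genes, and 3 were lower, 6.67% beside 12.7%. The higher members were Trim36, Trim6, Trim40, Trim25, Trim12c, Trim15, Trim34b, Trim34a, Trim23 and Trim24, and the lower ones Trim8, Trim28 and Trim47. The log2 fold change, NAP minus control, was above 0 for 27 members (60%, beside 44.7% of all tested genes), with a median of 0.22 beside -0.07 over all tested genes. Every NAP library lay above every control for Trim36, Trim6 and Trim40, 6.67% of members beside 2.14% of all tested genes. Trim36, named in the rule with its result known, is counted in every share of higher members given here. These shares are therefore a description and no test of the family. Trim34b, also among the higher members, met the count rule only through its NAP libraries. No member lay wholly below the controls (2.57% of all tested genes did), and groups without overlap in either direction made up 4.71% of all tested genes. Of the 32 members whose 95% interval included 0, the interval lay within -1 to 1 for 23 and reached past these bounds for 9, so for the latter a change of 2-fold in either direction was not always outside what these libraries allow. DESeq2 called more genes in general: at the same threshold, 8 of the 41 members with an adjusted p passed (19.5%, beside 13% of all genes with one), 6 of them higher (14.6%, beside 6.61%) and 2 lower (4.88%, beside 6.43%). After a GC and length trend was removed from each library, no gene and no member passed.

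**Figure D1:**
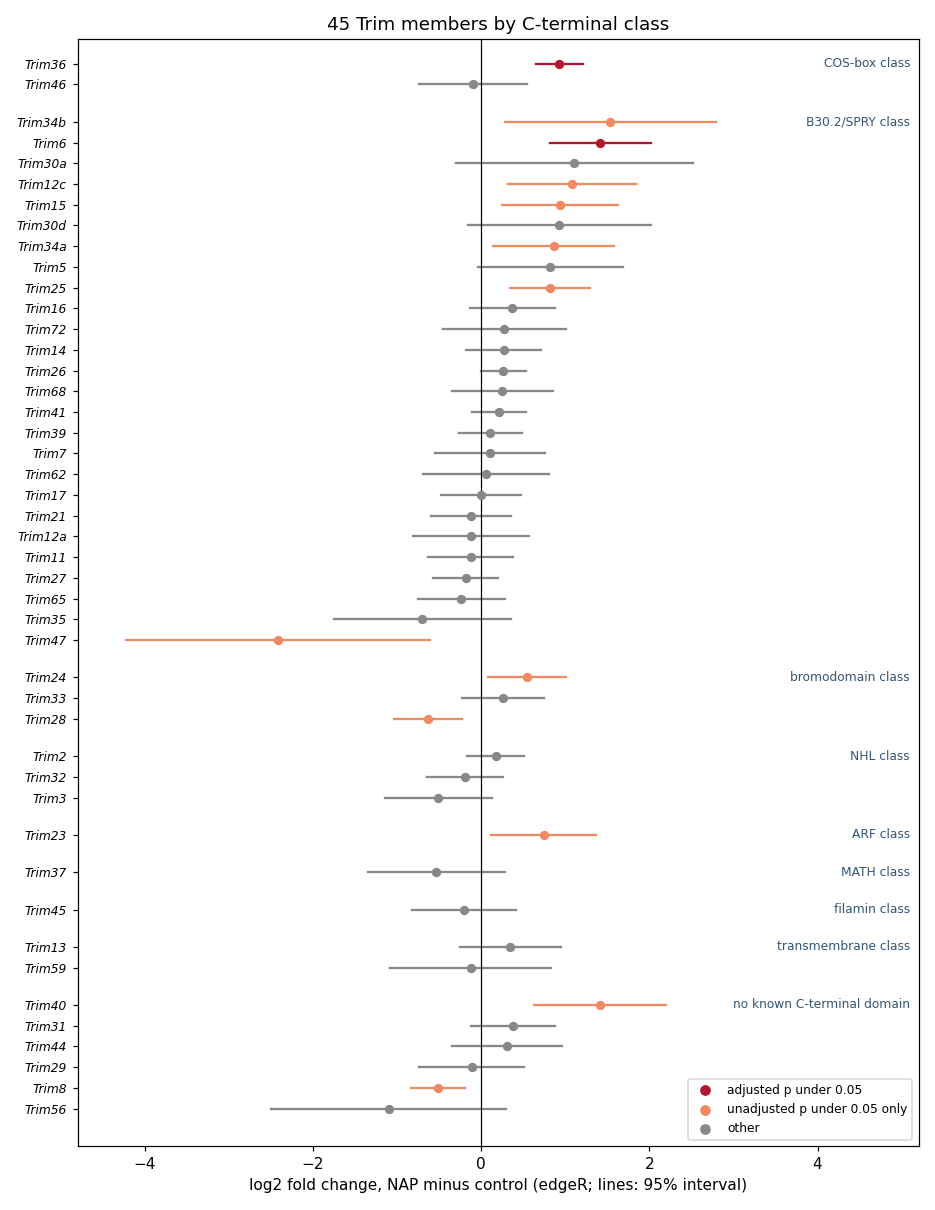
Log2 fold change, NAP minus control, of the 45 members on the horizontal axis, grouped by C-terminal class on the vertical axis; points are edgeR estimates and lines their 95% intervals. Trim36 (0.93) and Trim6 (1.41) are the points past an adjusted p of 0.05, and Trim47 (-2.42) has the widest interval.

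Upstream sequence was read from RefSeq windows of GRCm38.p6, each 300 bases long from 250 before to 50 after a gene start, and 34 members had at least 1 window. Windows were searched on both strands for GAAA, any 2 bases and GAAA, the core of the interferon-stimulated response element. It occurred in 3.44% of 32851 windows and in 3.99% of 27025 genes. It was found for 9 members, 26.5% of those with a window: Trim5, Trim12a, Trim12c, Trim21, Trim26, Trim30a, Trim30d and Trim34a, all of the interferon-linked group, and Trim2. Trim5, Trim12a, Trim12c, Trim30a, Trim30d and Trim34a lie in the same run on chromosome 7 and include close copies. The 9 are therefore not separate observations. The genes of that run also count in the medians of the run and of the interferon-linked group given below. The first 3 windows below belong to the members with the smallest p among those higher after NAP that had a window, and none of them held the motif. The other windows belong to a pair of chromosome 7 genes with the motif that were higher at an unadjusted p under 0.05, Trim12c and Trim34a, and to Trim12a, which also held it and had a log2 fold change of -0.12. Capitals mark the match, which lay on the strand opposite to the printed gene strand and so reads as its reverse complement. The windows are chr7:104218545-104218844 (+ strand) for Trim6, chr17:36890076-36890375 (- strand) for Trim40, chr11:88999153-88999452 (+ strand) for Trim25, chr7:104353300-104353599 (- strand) for Trim12c, chr7:104244207-104244506 (+ strand) for Trim34a and chr7:104315446-104315745 (- strand) for Trim12a.
Trim6: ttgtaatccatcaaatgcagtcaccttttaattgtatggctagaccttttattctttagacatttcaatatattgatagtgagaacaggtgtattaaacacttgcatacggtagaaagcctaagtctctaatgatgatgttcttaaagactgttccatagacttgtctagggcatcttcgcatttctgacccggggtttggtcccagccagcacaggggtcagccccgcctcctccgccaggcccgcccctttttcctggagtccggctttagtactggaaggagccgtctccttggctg
Trim40: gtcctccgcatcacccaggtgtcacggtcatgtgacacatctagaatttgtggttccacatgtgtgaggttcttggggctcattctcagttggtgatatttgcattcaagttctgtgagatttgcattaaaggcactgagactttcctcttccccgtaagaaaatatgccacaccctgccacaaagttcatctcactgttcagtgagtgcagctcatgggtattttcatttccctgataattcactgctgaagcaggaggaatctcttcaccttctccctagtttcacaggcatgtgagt
Trim25: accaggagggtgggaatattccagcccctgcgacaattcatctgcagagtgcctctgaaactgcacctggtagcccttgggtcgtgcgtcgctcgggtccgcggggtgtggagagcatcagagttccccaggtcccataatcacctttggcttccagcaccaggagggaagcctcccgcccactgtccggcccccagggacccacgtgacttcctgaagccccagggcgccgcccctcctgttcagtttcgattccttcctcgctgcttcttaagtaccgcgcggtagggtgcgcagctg
Trim12c: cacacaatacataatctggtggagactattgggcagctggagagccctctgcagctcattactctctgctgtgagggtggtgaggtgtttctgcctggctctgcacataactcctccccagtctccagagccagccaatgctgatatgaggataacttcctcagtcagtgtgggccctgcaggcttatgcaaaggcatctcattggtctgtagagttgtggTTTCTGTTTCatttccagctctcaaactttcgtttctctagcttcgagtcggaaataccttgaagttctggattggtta
Trim34a: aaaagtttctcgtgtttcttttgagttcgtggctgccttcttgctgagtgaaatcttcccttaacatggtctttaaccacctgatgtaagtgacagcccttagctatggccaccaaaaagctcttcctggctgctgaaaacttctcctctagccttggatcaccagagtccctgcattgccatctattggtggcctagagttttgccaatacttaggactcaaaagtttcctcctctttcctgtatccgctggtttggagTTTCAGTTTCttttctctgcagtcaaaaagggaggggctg
Trim12a: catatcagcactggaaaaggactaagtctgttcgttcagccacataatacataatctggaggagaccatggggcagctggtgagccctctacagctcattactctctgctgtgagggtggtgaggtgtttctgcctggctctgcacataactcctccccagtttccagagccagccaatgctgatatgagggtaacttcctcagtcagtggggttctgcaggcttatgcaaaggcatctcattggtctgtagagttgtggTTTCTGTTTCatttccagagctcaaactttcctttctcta
A match is a run of letters and not a measured site. Over the 9 members with the motif the median log2 fold change was 0.82, and 7 were positive. Over the 25 members with a window and no match it was 0.22, and 16 were positive. The first median rested on 1 library: without NAP 1 it was 0.24, beside 0.18 for members without a match, and with the GC and length trend removed it was 0.38, beside 0.23. Trim30a, with the motif, and Trim34b, without it, met the count rule only through their NAP libraries.

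Genes with a COS box, a part that binds microtubules, had 2 members. Trim36, a ubiquitin ligase known for roles at microtubules and chromosomes, lies on chromosome 18 from 46298367 to 46345674 of GRCm39, minus strand (gene identifier 28105). It held 19.8, 20.0, 21.4, 20.1 and 16.4 CPM in controls 1 to 5 and 38.6, 34.8, 39.9, 38.9, 34.4 and 36.8 CPM in NAP 1 to 6. The groups were far apart, and Trim36 had the smallest spread among controls of all 45 members, with a coefficient of variation of 9.56%. Its mean went from 19.5 ± 1.87 CPM (SD, n = 5) to 37.2 ± 2.28 CPM (SD, n = 6), 1.91-fold, with a log2 fold change of 0.93 (SE 0.13, 95% interval 0.65 to 1.21, adjusted p = 0.0343). The control level differed little between the libraries that otherwise stood apart, at 18.2 CPM on average in controls 2 and 5 and 19.9 CPM in controls 1 and 4. Without controls 2 and 5 the log2 fold change was 0.89 (adjusted p = 0.0386), and without controls 1 and 4 it was 0.98 (adjusted p = 0.0175). With the GC and length trend removed it was 0.66 (adjusted p = 0.0658), past the threshold no longer, and with single libraries left out the adjusted p ran from 0.0244 to 0.112. Trim46, which organises microtubules at the start of the axon, had means of 16.3 ± 7.06 in controls and 15.3 ± 4.07 CPM with NAP (log2 fold change -0.09, SE 0.30, adjusted p = 0.875). Its sign turned with 3 single libraries left out. Trim46 overlaps Krtcap2 on the other strand by 455 bases, and no source used here states whether the counting used strand.

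**Figure D2:**
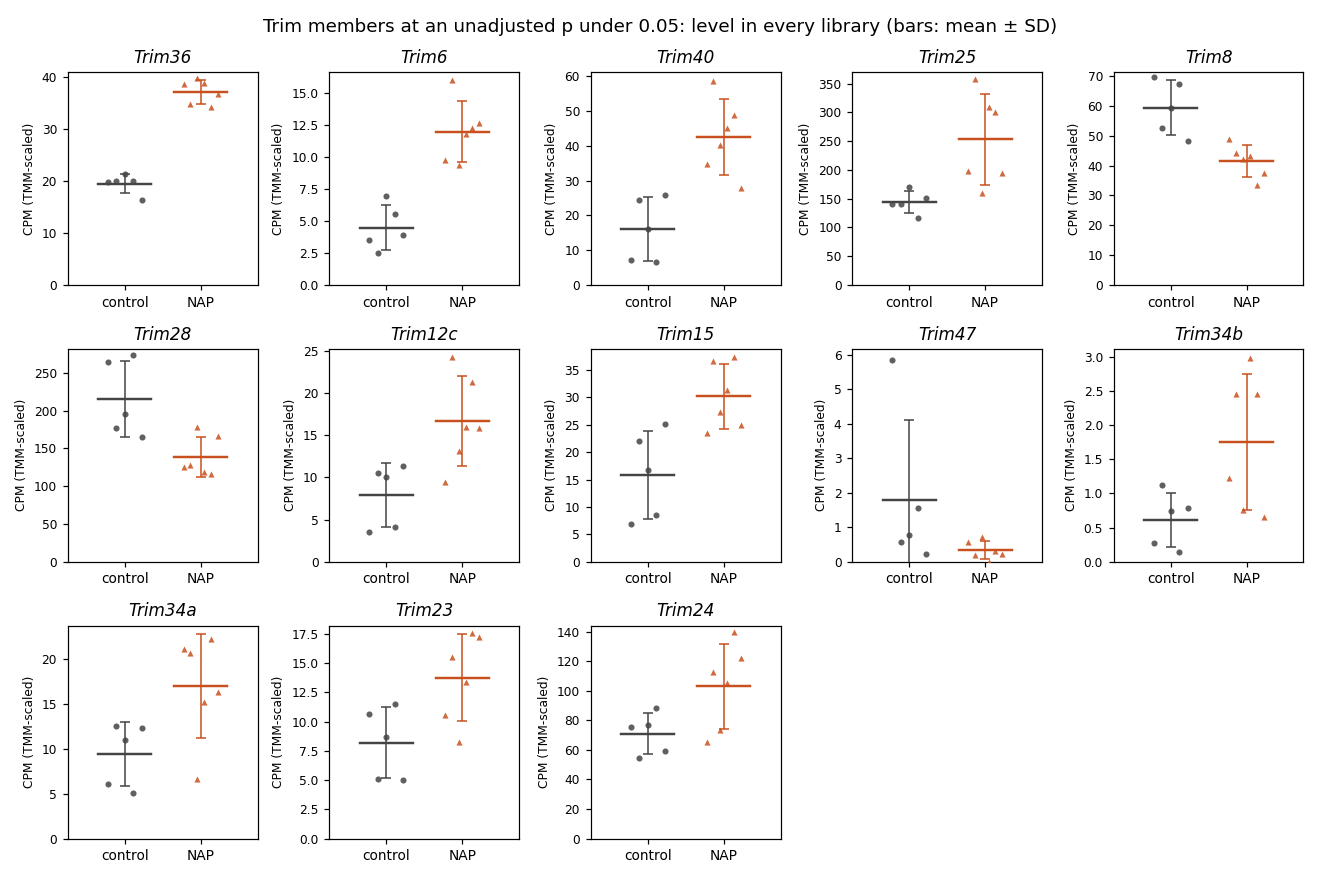
CPM in every library for the 13 members at an unadjusted p under 0.05; circles are the 5 controls, triangles the 6 NAP libraries, bars the mean ± SD, with the lower bar of Trim47 in controls ending at the axis. Trim36, Trim6 and Trim40 show no overlap between groups.

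Trim6 belongs to the B30.2/SPRY class, the largest with 26 members, of which 18 had a positive log2 fold change. Trim6 is known to make free ubiquitin chains that promote interferon signalling, and its gene lies on chromosome 7 from 103868002 to 103884359 of GRCm39, plus strand (gene identifier 94088). Controls 1 to 5 held 3.50, 2.51, 6.92, 5.54 and 3.87 CPM, and NAP 1 to 6 held 9.77, 15.98, 9.38, 11.8, 12.3 and 12.6 CPM. The lowest NAP library stood above the highest control. Trim6 rose 2.67-fold, from 4.47 ± 1.75 to 11.97 ± 2.37 CPM, with a log2 fold change of 1.41 (SE 0.28, 95% interval 0.81 to 2.02, adjusted p = 0.0386). Without controls 2 and 5 the log2 fold change was 1.19 (adjusted p = 0.0429), without controls 1 and 4 it was 1.45 (adjusted p = 0.0292), and with the GC and length trend removed it was 1.21 (adjusted p = 0.0603). With single libraries left out, the adjusted p of Trim6 ran from 0.0295 to 0.112. At 2.51 RPKM after NAP (CPM per kilobase of gene length), Trim6 was still a low member by length-scaled level, at place 33 of 45 over all libraries.

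Trim6 stands at one end of a run of Trim genes on chromosome 7 that ends with Trim30d. The run holds 8 members, of which 7 had a positive log2 fold change, with a median of 1.01, beside 44.7% of all tested genes above 0, and 4 were higher at an unadjusted p under 0.05, beside 10.8% of all tested genes. Grouping by this run was chosen after the values were seen, as were the names of Trim12a and Trim30d. Trim34b and Trim30a met the count rule only through their NAP libraries, so their positive values are no support for the run. Trim34b had 6, 16, 17, 3 and 11 counts in controls and 22, 41, 14, 49, 39 and 14 after NAP. Trim30a had 6, 8, 28, 12 and 7 counts in controls and 84, 14, 13, 10, 9 and 15 after NAP. Trim12c, a mouse relative of the restriction factor Trim5, held 3.55, 10.5, 10.1, 4.08 and 11.3 CPM in controls and 9.49, 24.2, 13.2, 15.99, 21.4 and 15.9 CPM after NAP. All NAP libraries but NAP 1 lay above every control (2.12-fold, log2 fold change 1.08, SE 0.35, adjusted p = 0.0960). Trim34a, whose human relative restricts retroviral capsids, held 6.09, 12.5, 10.99, 5.08 and 12.3 CPM in controls and 21.1, 20.7, 6.67, 15.3, 22.2 and 16.4 CPM after NAP. Here NAP 3 lay among the controls and the other NAP libraries above them (1.82-fold, log2 fold change 0.86, SE 0.33, adjusted p = 0.143). Its close copy Trim34b held 0.277, 1.12, 0.736, 0.137 and 0.788 CPM in controls and 1.23, 2.45, 0.759, 2.98, 2.45 and 0.660 CPM after NAP, with 4 NAP libraries above every control (log2 fold change 1.54, SE 0.58, adjusted p = 0.136). Trim34b overlaps Trim12c on the opposite strand by 3518 bases, so reads of the more abundant Trim12c could be counted there.

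The other members of the run were not at an unadjusted p under 0.05. Trim5 had means of 0.975 ± 0.436 in controls and 1.71 ± 0.599 CPM with NAP (log2 fold change 0.82, adjusted p = 0.234). Trim30a, the mouse gene of the interferon-inducible Trim30 group, held 4.69 CPM in NAP 1 and 0.565 to 0.838 CPM in the other NAP libraries. Trim30d likewise held 28.2 CPM in NAP 1 and 4.38 to 11.8 CPM in the rest. Without NAP 1 the log2 fold changes of Trim30a and Trim30d were 0.13 and 0.39, against 1.11 and 0.93 with it. Trim12a had means of 6.59 ± 2.77 in controls and 6.02 ± 1.95 CPM with NAP (log2 fold change -0.12, adjusted p = 0.840), and its sign changed in 4 of 24 alternatives, among them without controls 2 and 5 (0.40). Trim12a and Trim12c, Trim30a and Trim30d, and Trim34a and Trim34b are close copies, and no source used here states how reads with several matches were treated, so the split of counts between copies is uncertain.

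**Figure D3:**
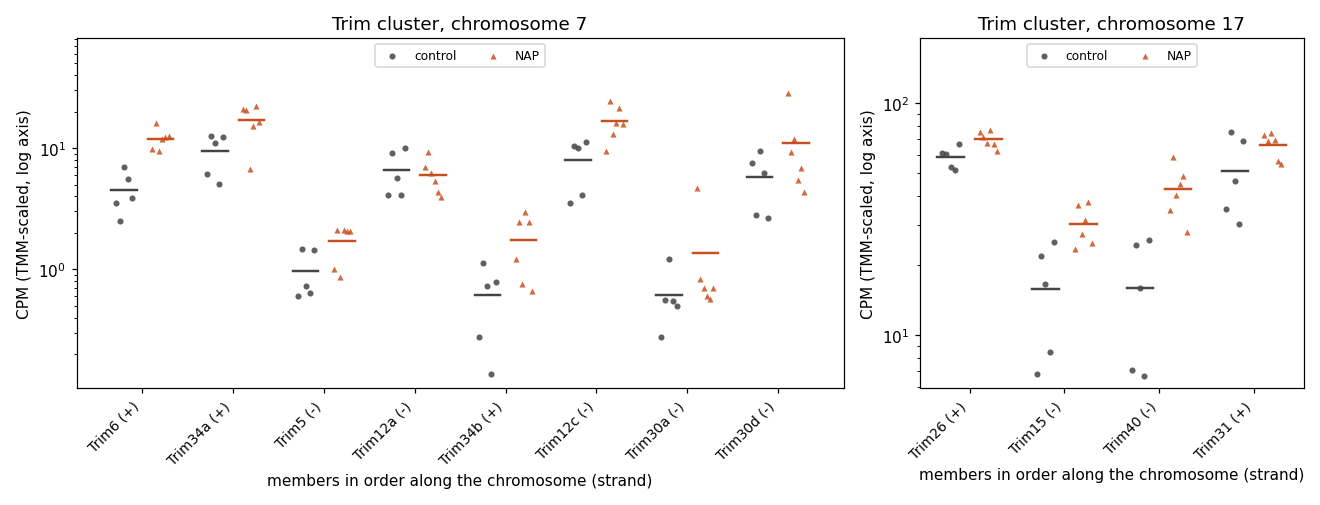
CPM on a log axis for the members of the runs on chromosomes 7 and 17, in order along the chromosome with the strand in brackets; circles are controls, triangles NAP libraries and lines the group means. In the chromosome 7 run the mean after NAP lies above the control mean for every member but Trim12a, and in the chromosome 17 run for all 4.

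Trim25, which attaches ubiquitin to the RNA sensor RIG-I, was the second most abundant member per length (36.4 RPKM over all libraries). It lies on chromosome 11 from 88890194 to 88911119, plus strand. Controls held 140, 140, 171, 117 and 152 CPM, and NAP libraries 199, 359, 161, 309, 300 and 195 CPM. NAP 3 lay within the control range and the other 5 NAP libraries above every control, with a wider spread after NAP (254 ± 79.2 CPM) than in controls (144 ± 19.5 CPM). The log2 fold change was 0.82 (SE 0.22, 95% interval 0.34 to 1.29, adjusted p = 0.0631). It passed in DESeq2 (adjusted p = 0.00882) and without NAP 1 (adjusted p = 0.0480) or NAP 3 (adjusted p = 0.0360).

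The 12 interferon-linked members cross the classes and include Trim25 and most of the chromosome 7 run. Of them 9 had a positive log2 fold change, with a median of 0.82 beside 0.22 for all members, and 4 were higher at an unadjusted p under 0.05 (Trim25, Trim12c, Trim34a, Trim34b). Trim34b and Trim30a, both counted here, met the count rule only through their NAP libraries. The median was 0.32 without NAP 1, beside 0.18 for all members, and 0.53 with the GC and length trend removed. At the adjusted threshold 0 passed in edgeR or limma voom and 2 in DESeq2, where 13% of all genes with an adjusted p passed. Of all tested genes, 44.7% had a positive log2 fold change and 10.8% were higher at an unadjusted p under 0.05 in edgeR. Trim21, the cytosolic antibody receptor, held 5.47 ± 0.963 CPM in controls and 5.02 ± 0.819 CPM after NAP. Trim14, an adaptor of antiviral signalling, held 34.2 ± 10.2 and 41.3 ± 6.61 CPM. Trim56, a ligase of the DNA sensing pathway, held 15.4 and 10.5 CPM in controls 1 and 4 and 1.36 to 4.24 CPM in the other controls, beside 1.26 to 6.20 CPM after NAP. Its log2 fold change was -1.10 (SE 0.65) with all libraries and 0.41 without controls 1 and 4. Trim21, Trim14 and Trim56 were chosen for naming after their values were seen.

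On chromosome 17, Trim26, Trim15, Trim40 and Trim31 lie in a row, with Trim10, which missed the count rule, among them. All 4 had a positive log2 fold change, with a median of 0.66, which was 1.19 without controls 2 and 5 and 0.40 without controls 1 and 4. This run too was grouped after the values were seen. Trim40, a gut-enriched member that lacks a known C-terminal domain and restrains NF-kappaB signalling, lies from 37192488 to 37201049, minus strand. It held 7.05, 24.5, 16.01, 6.69 and 25.8 CPM in controls and 34.8, 58.7, 40.1, 45.04, 48.8 and 27.8 CPM after NAP. The groups did not overlap, although controls 2 and 5 held 3.66 times the mean of controls 1 and 4. The mean was 16.01 ± 9.15 CPM in controls and 42.5 ± 10.8 CPM with NAP (2.66-fold, log2 fold change 1.41, SE 0.36, 95% interval 0.63 to 2.2, adjusted p = 0.0596). The difference passed the threshold in DESeq2, limma voom and both fits to FPKM values. It also passed without controls 2 and 5 (log2 fold change 2.12, adjusted p = 0.0386) and without controls 1 and 4 (0.98, adjusted p = 0.0373).

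Trim15, of the B30.2/SPRY class, was like Trim40 highest among controls in controls 2 and 5 and lowest among NAP libraries in NAP 1 and NAP 6. Controls held 6.82, 22.0, 16.7, 8.47 and 25.2 CPM and NAP libraries 23.5, 36.6, 27.3, 31.4, 37.4 and 24.98 CPM. NAP 1 and NAP 6 lay just below control 5, and the other NAP libraries lay above every control (log2 fold change 0.93, SE 0.32, adjusted p = 0.107). Trim31, a ligase known for acting on the NLRP3 inflammasome, had means of 51.1 ± 20.1 and 66.3 ± 8.42 CPM (log2 fold change 0.38, SE 0.23, adjusted p = 0.344). Its controls split again, with 75.3 and 68.6 CPM in controls 2 and 5 and 30.1 to 46.4 CPM in the others, and without controls 2 and 5 its log2 fold change was 0.86 (adjusted p = 0.0386). Trim26, named after its values were seen, held 58.6 ± 6.21 and 70.2 ± 5.57 CPM (log2 fold change 0.26, adjusted p = 0.222). Controls 2 and 5, where Trim40, Trim15 and Trim31 were highest among controls, are the controls with the highest colonocyte marker sums given above; the part of cell type in these values was not tested.

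The 3 lower members were led by Trim8, which has no known C-terminal domain and acts in STAT and NF-kappaB signalling. Its controls held 69.7, 52.6, 59.3, 67.4 and 48.4 CPM and its NAP libraries 48.9, 44.4, 42.4, 43.2, 33.5 and 37.6 CPM. NAP 1 was just above control 5, and NAP 2 to 6 were all lower than any control (59.5 ± 9.18 against 41.7 ± 5.38 CPM, log2 fold change -0.51, SE 0.15, adjusted p = 0.0725). Trim47, a B30.2/SPRY member near the count minimum, had 127, 8, 18, 34 and 3 counts in controls and 10, 3, 13, 0, 5 and 5 counts after NAP. Control 1 alone stood out, at 5.85 CPM beside 0.215 to 1.56 CPM in the other controls. The 0 in NAP 4 allows up to 0.182 CPM. The log2 fold change of Trim47 was -2.42 (SE 0.84, adjusted p = 0.111), and -1.23 without control 1.

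The bromodomain class holds the transcriptional intermediary factors, which read and modify chromatin. Trim28, or KAP1, is the corepressor recruited by KRAB zinc finger proteins, and it was the most abundant member per length in controls, at 66.3 ± 15.6 RPKM. After NAP it held 42.8 ± 8.25 RPKM, below the mean of Trim25. Its controls held 264, 177, 195, 274 and 165 CPM and its NAP libraries 125, 128, 178, 119, 116 and 167 CPM. NAP 3 and NAP 6 lay among the controls and the other 4 NAP libraries below them (log2 fold change -0.63, SE 0.19, 95% interval -1.04 to -0.22, adjusted p = 0.0789). Trim24, a nuclear receptor cofactor, ran the other way, with 75.3, 54.5, 77.1, 88.3 and 58.9 CPM in controls and 65.2, 113, 73.4, 105, 140 and 122 CPM after NAP. NAP 1 and NAP 3 lay among the controls and the other NAP libraries above them (log2 fold change 0.54, SE 0.21, adjusted p = 0.151). Trim33, which acts with SMAD proteins, held 39.7 ± 13.7 and 47.5 ± 7.46 CPM (log2 fold change 0.26, adjusted p = 0.511); it was named after its values were seen, and its log2 fold change was -0.02 without controls 2 and 5. The difference between Trim24 and Trim28 was not tested.

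The NHL, ARF, MATH, filamin and transmembrane classes held no member past the adjusted threshold in edgeR, DESeq2 or limma voom. Trim23 alone among their members was at an unadjusted p under 0.05. Trim23, which carries an ARF GTPase domain, held 10.6, 5.1, 8.70, 11.5 and 5.01 CPM in controls and 10.6, 15.5, 8.29, 13.4, 17.6 and 17.3 CPM after NAP. NAP 1 and NAP 3 lay within the control range, and the other 4 NAP libraries above it (log2 fold change 0.74, SE 0.29, adjusted p = 0.145). In the NHL class, Trim2, a neuronal ligase, held 151 ± 19.5 and 170 ± 29.3 CPM (log2 fold change 0.17, adjusted p = 0.535). Trim3 of the same class held 11.4 ± 4.61 and 7.99 ± 2.05 CPM (log2 fold change -0.51, adjusted p = 0.313). Trim37, the MATH-domain ligase of centrosomes and peroxisomes, held 39.3, 10.5, 21.6, 43.6 and 10.5 CPM in controls and 12.7 to 24.2 CPM after NAP, wholly inside the control range (log2 fold change -0.53, adjusted p = 0.410, and 0.31 without controls 1 and 4). Trim45, the filamin-domain member, held 3.65 ± 1.22 and 3.17 ± 0.554 CPM. The membrane-anchored Trim13 and Trim59 had log2 fold changes of 0.35 (adjusted p = 0.471) and -0.12 (adjusted p = 0.890), and Trim59 turned to 0.65 without controls 1 and 4. Trim13 overlaps the noncoding gene Dleu2 on the other strand by 7452 bases.

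The spread among controls was wider than among NAP libraries for 37 of 45 members. The median coefficient of variation was 34.9% in controls and 25.7% after NAP, and it passed 50% for 12 members in controls and for 5 after NAP. The spread followed pairs of libraries. Controls 1 and 4 were above the other controls for 15 members (33.3%, beside 29.7% of all tested genes), and controls 2 and 5 for 12 (26.7%, beside 33.4%), so the members split about as other genes did. The mean of controls 1 and 4 was 9.58 times that of controls 2 and 5 for Trim47, 9.39 times for Trim56, 6.40 times for Trim35, 5.25 times for Trim59 and 3.95 times for Trim37. In the other direction it was controls 2 and 5 that held 4.6 times the mean of controls 1 and 4 for Trim34b, 3.66 times for Trim40, 3.09 times for Trim15, 3.04 times for Trim62 and 2.86 times for Trim12c. Trim35 and Trim62, named after their values were seen, are B30.2/SPRY members. Trim36 (1.10 times) and Trim25 (0.880 times) hardly followed the split, as ratios of controls 1 and 4 to controls 2 and 5.

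**Figure D4:**
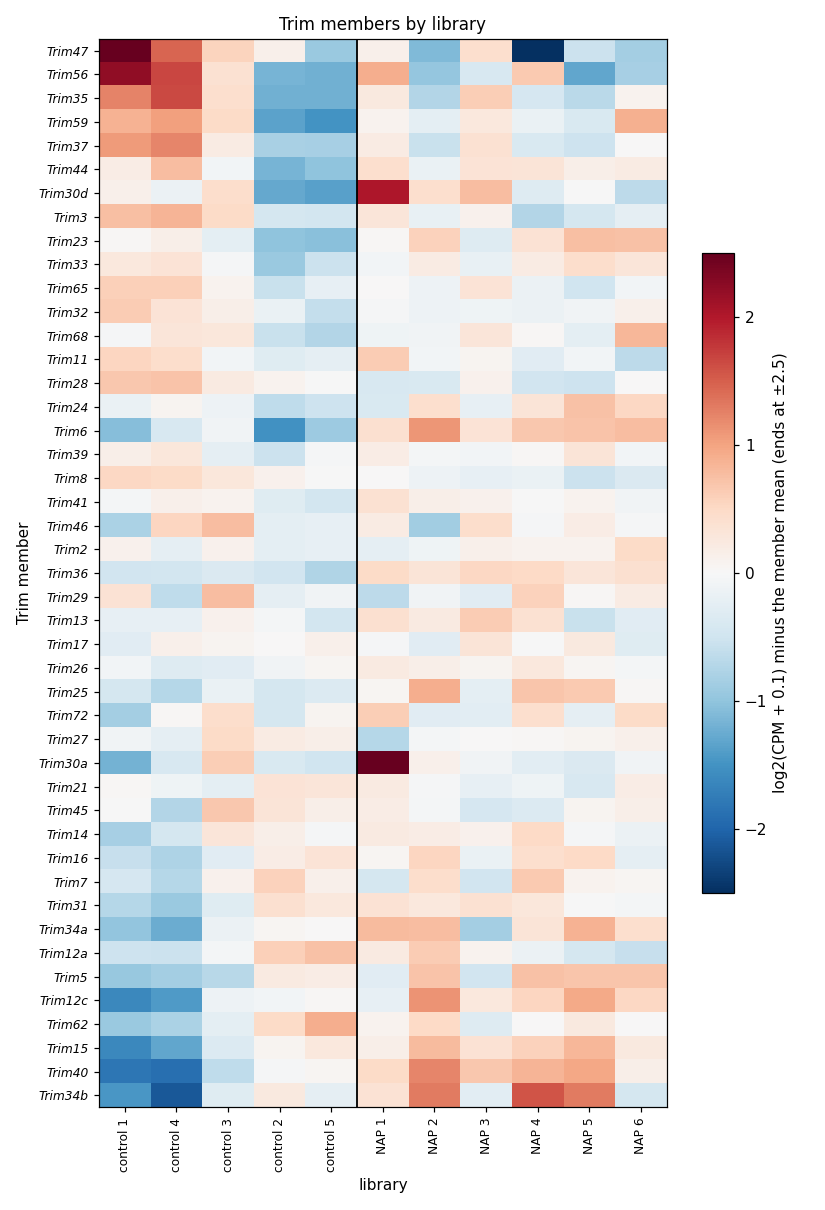
Each row is a member and each column a library, with controls left of the line; colour is log2(CPM + 0.1) minus the member's mean over the 11 libraries, ending at ±2.5, and rows are ordered by the ratio of controls 1 and 4 to controls 2 and 5. Trim47 and Trim56 at the top are high in controls 1 and 4, Trim40 and Trim34b at the bottom are low there, and Trim36 in the middle splits by group.

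The number of members called moved with these libraries. Without controls 2 and 5, 9 members passed (20%, beside 5.32% of all tested genes). Of these 6 were higher (13.3%, beside 2.71%), namely Trim36, Trim6, Trim40, Trim15, Trim12c and Trim31, and 3 lower (6.67%, beside 2.61%), namely Trim8, Trim28 and Trim47. Without controls 1 and 4, 5 passed (11.1%, beside 8.28% of all tested genes in either direction and 2.82% higher), all higher: Trim36, Trim6, Trim40, Trim23 and Trim44, the last a member with a zinc finger of ubiquitin proteases in place of a RING, named after its values were seen. Trim36, Trim6 and Trim40 passed in both, and Trim36, named with its result known, is counted in these shares of higher members. With 1 library left out, no member passed without control 1, 2 or 5 or NAP 2, 4 or 5, where no gene of the table passed either. The number passing was 1 without NAP 6 (0.767% of all tested genes passed), 2 without control 3 (1.04%) or control 4 (2.89%), 3 without NAP 3 (5.39%) and 4 without NAP 1 (5.58%).

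By length-scaled level over all libraries, Trim28 (53.5 RPKM) stood first, followed by Trim25 (36.4), Trim27 (29.7), Trim16 (28.8) and Trim31 (26.4). In controls Trim27, a ligase of endosomal sorting, held 31.8 ± 6.01 RPKM, Trim25 25.7 ± 3.48, Trim16 24.8 ± 8.22 and Trim31 22.7 ± 8.94, so these 4 neighbours did not differ beyond their spread, while Trim28 at 66.3 ± 15.6 RPKM stood above them. After NAP the first places went to Trim25 (45.3 ± 14.1 RPKM) and Trim28 (42.8 ± 8.25 RPKM), which overlapped. Trim27 had means of 142 ± 26.8 and 125 ± 22.9 CPM (log2 fold change -0.18, adjusted p = 0.559), with NAP 1 at 79.2 CPM below the others. Trim16, a member without a RING that acts in autophagy, held 97.8 ± 32.4 and 127 ± 29.2 CPM (log2 fold change 0.37, adjusted p = 0.356). At the low end stood Trim34b (0.221 RPKM), Trim30a (0.251) and Trim5 (0.342). Just inside the count rule, by the fifth-highest count, were Trim47 (10), Trim30a (13) and Trim34b (17), and just outside it Trim43c (9), Trim69 (4) and Trim10 (3). Of the 23 coding Trim genes left out, Trim75, Trim61 and Trim52 were at 0 in every library. Trim9 and Trim67, which like Trim36 carry a COS box and a SPRY domain, had 56 counts each over all 11 libraries. The muscle RING members Trim54, Trim55 and Trim63, which have a COS box but no SPRY domain, had 1, 12 and 5.

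**Figure D5:**
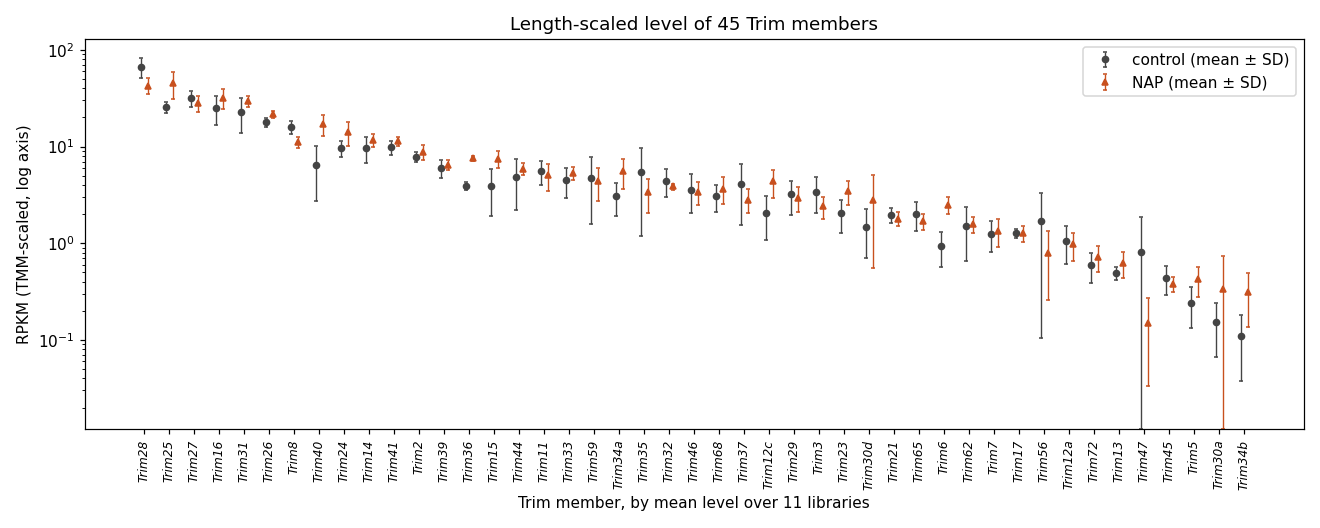
Mean RPKM ± SD of each member on a log axis, controls as circles (n = 5) and NAP as triangles (n = 6), ordered by the mean over 11 libraries; lower bars that would reach 0 end at the axis. Trim28 leads in controls and Trim25 after NAP, and Trim36 shows short bars that do not meet.

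Transcript GC content, taken from GENCODE M21, differed between the higher and lower members. The 3 members lower at an unadjusted p under 0.05 were the 3 with the highest GC of all 45 (59.6 to 64.1%, against at most 59.1% elsewhere), and the 10 higher members ran from 37.4 to 52.6%. Over the 45 members the log2 fold change had a Spearman rho of -0.55 with GC content, and over 12472 tested genes -0.44; genes share their libraries and are not replicates. For each library, the log2 CPM of every gene was taken relative to that gene's mean over the 11 libraries. The rank correlation of this difference with GC was 0.02 to 0.36 in controls and -0.56 to 0.12 after NAP. With the trend on GC and length removed from each library, the log2 fold change of Trim8 was -0.14, of Trim28 -0.22 and of Trim47 -1.86. That of Trim40 was 1.51 and that of Trim25 0.76, close to the values without removal.

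Genes that work with the family were read from 5 lists. None of their tested members passed the adjusted threshold in edgeR (2.12% of all tested genes did) or limma voom. In DESeq2 3 passed, where 13% of all genes with an adjusted p did. Of all tested genes, 44.7% had a positive log2 fold change. At an unadjusted p under 0.05 in edgeR were 23.6% of them, 10.8% higher and 12.7% lower. Of 16 ubiquitin E1 and E2 enzymes, 9 had a positive log2 fold change and 4 were at an unadjusted p under 0.05, 2 in each direction. Ube2w, which ubiquitinates protein ends, had means of 27.4 ± 2.98 in controls and 40.9 ± 7.44 CPM with NAP (log2 fold change 0.58, adjusted p = 0.0660), and Ube2n, the partner for lysine-63 chains, 76.9 ± 7.88 and 99.3 ± 10.4 CPM (0.37, adjusted p = 0.116). Of 20 genes of RIG-I and DNA sensing, 12 were positive and 4 at an unadjusted p under 0.05, 2 in each direction. Irf3, the transcription factor at the end of these pathways, held 83.5 ± 27.7 and 51.3 ± 11.4 CPM (log2 fold change -0.70, adjusted p = 0.0928), and Ikbkg, the NEMO subunit of the IKK complex, 48.6 ± 5.29 and 68.9 ± 16.4 CPM (0.50, adjusted p = 0.111).

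The type I interferon response list mixes interferon-induced genes with receptor and kinase genes of the signalling (Ifnar1, Ifnar2, Ifnlr1, Jak1 and Tyk2). Its median log2 fold change was 0.01 over 29 tested genes, 15 of them positive. At an unadjusted p under 0.05, 3 were higher (Jak1, Ifnlr1 and Dtx3l) and 2 lower (Bst2 and Oas1a). Whether this list bears on the interferon-linked members was not tested. Bst2, the virus tether, had means of 17.5 ± 4.22 in controls and 10.5 ± 2.24 CPM with NAP (log2 fold change -0.73, adjusted p = 0.0764), and the receptor kinase Jak1 102 ± 10.2 and 137 ± 30.6 CPM (0.42, adjusted p = 0.164). Of 18 partners of Trim28, Trim24 and Trim33 on chromatin, 8 were positive, 2 were higher and 1 lower at an unadjusted p under 0.05. Morc3 held 31.3 ± 11.5 and 47.2 ± 9.40 CPM (0.59, adjusted p = 0.174), and Smad3, a TGF-beta effector, 48.2 ± 11.7 and 67.3 ± 16.3 CPM (0.48, adjusted p = 0.189). Of 10 family members with other names, 6 were tested and 2 were positive. Bspry, a B-box and SPRY protein, held 183 ± 42.3 and 135 ± 12.9 CPM (-0.45, adjusted p = 0.130), and Mid2, a COS-box relative of Trim36, 29.9 ± 6.14 and 41.5 ± 8.63 CPM (0.47, adjusted p = 0.159).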

How the data were processed

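Poly(A)-enriched RNA of 11 libraries was sequenced, per the labels' protocols, and libraries were grouped and numbered by their titles. Raw counts were deposited by the authors. The submitters' processing notes name Trimmomatic 0.39, HISAT2 2.2.1, featureCounts of Subread 2.0.8 and the build GRCm39; annotation release, strand setting and handling of multiply matching reads are not stated there or in the labels. The authors also deposited FPKM values, which equal, apart from the unit, the counts divided by gene length and by 1 constant per library. That constant was 0.870 to 1.28 times the count total of the library, so these values are not scaled by the plain total. Gene coordinates are those of the deposited table. The table held 800 genes without a proper name, which stayed in the tests.

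Genes were kept with filterByExpr of edgeR 4.0.16 (14840 tested, all 45 members among them), scaled with TMM and compared with the robust quasi-likelihood test in R 4.3.3, all 11 libraries and no covariate. P-values were adjusted by Benjamini-Hochberg over all tested genes, with a threshold of 0.05. Standard errors are the log2 fold change over the square root of the test statistic. The members, the lists and the rule for named genes were chosen with earlier results of these data known. That rule took Trim36, the members at an unadjusted p under 0.05, the 5 highest and 3 lowest by length-scaled level, the 2 smallest p-values in each C-terminal class and in each of the 5 lists, and the 3 genes on each side of the count rule.

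Alternatives were RLE and no scaling, 2 other filters, DESeq2 1.42.0, limma 3.58.1 on voom values and on log2(FPKM + 1) or log2(FPKM + 0.1), a threshold of 0.10, a replicate block, each library left out, 2 pairs of controls left out, and a lowess trend (span 0.3) on GC content and length removed per library. GC content was found for 84.0% of tested genes, 88.3% of called genes and all 45 members. In simulated counts for 14533 genes of this comparison, the edgeR procedure recovered 18 of 100 genes changed by a log2 of 1 and 80 of 100 changed by a log2 of 2, with 2 unchanged genes called. The simulated counts were drawn independently for each gene, without the control pairs or the per-library GC trend of the data. They therefore do not show how many calls in the data are false. No 2 libraries were identical (55 pairs).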

Additional observations from a re-analysis of the deposited data

Results flagged for a closer look

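In 3 of 50 groups of named members tested (25 members in controls and in NAP libraries), 1 library lay far from the others by Dixon's criterion, where chance gives about 1 in 20. Trim47 held 5.85 CPM in control 1 and 0.215 to 1.56 CPM in the other controls. Trim27 held 79.2 CPM in NAP 1 and 127 to 142 CPM in the other NAP libraries. Trim30a held 4.69 CPM in NAP 1 and 0.565 to 0.838 CPM in the other NAP libraries.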

How the results depend on the processing

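The number of members past an adjusted p of 0.05, 2 in edgeR, was 0 with no scaling, 8 with DESeq2, 7 at a threshold of 0.10, 9 without controls 2 and 5, 5 without controls 1 and 4, 0 with the GC and length trend removed and 0 to 4 with 1 library left out. The count of all genes called, 315 in edgeR, was 41 with no scaling, 89 with every gene of at least 1 count kept, 1656 with DESeq2, 1480 at a threshold of 0.10, 824 without controls 2 and 5, 1315 without controls 1 and 4, 0 with the GC and length trend removed and 0 to 814 with 1 library left out. Genes of the 5 lists called, 0 in edgeR, numbered 3 with DESeq2, 3 at 0.10, 1 without controls 2 and 5, 3 without controls 1 and 4 and 0 to 2 with 1 library left out. Members at an unadjusted p under 0.05 numbered 13 in edgeR (28.9%, beside 23.6% of all tested genes). They were 23 without controls 2 and 5 and 11 to 18 with 1 library left out. The shares of all tested genes under those settings are not given here, so these counts show only how far the number moved. The median log2 fold change of members, 0.22, was 0.11 with no scaling, 0.11 without controls 2 and 5, 0.31 without controls 1 and 4, 0.12 on log2(FPKM + 1) and 0.15 to 0.23 with 1 library left out. The count of members with a positive log2 fold change, 27, stayed within 27 to 32. The share of all tested genes above 0 under those settings is not given here, so this range is not set against a background. The median over all tested genes moved too. It was -0.07 in edgeR, -0.001 without controls 2 and 5 and 0.06 without controls 1 and 4, where the count of members was 32.

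Replicate numbers did not pair the libraries throughout. After each gene's group mean was subtracted from its log2 CPM, same-numbered libraries had correlations of 0.44, 0.37, -0.10, -0.35 and 0.33. The same-numbered NAP library was the best match for controls 1 and 2 and not for controls 3, 4 and 5. With a replicate block, 0 members and 0 genes passed, and Trim36 had a log2 fold change of 0.95 (adjusted p = 0.135) and Trim6 of 1.46 (adjusted p = 0.137).

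Of the 45 members, 18 changed sign in at least 1 of 24 alternatives, none of them among the 13 at an unadjusted p under 0.05, and Trim17 did so in 15. The 13 were picked in the same libraries that the alternatives reuse, so their steady sign is no independent support. Among the members chosen by the naming rule, the sign turned for Trim59 with limma voom (0.066), log2(FPKM + 1) (0.079), log2(FPKM + 0.1) (0.17), without controls 1 and 4 (0.65) and with control 1 or control 4 left out, within a range of -0.33 to 0.15 over single libraries left out. It turned for Trim46 without control 3, control 4 or NAP 2, within a range of -0.25 to 0.14 over single libraries left out, and with the GC and length trend removed (0.21), for Trim37 without controls 1 and 4 (0.31), and for Trim2 with the trend removed (-0.062). The cause was not tested. Trim36 passed in 15 and Trim6 in 14 of 24 alternatives, each with a positive log2 fold change in all 24. The fit to genes with a GC value and no trend removed, where 2 members passed, was chosen after seeing the data. Depth limits Trim47, Trim30a and Trim34b most, with 10, 13 and 17 as their fifth-highest counts.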
